A study of Mus musculus with 28 samples.

Results

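Motile cilia and ciliated cell genes were followed in epithelial cells of the mouse lung, as a list of 34 genes chosen by name, of which 32 had a row among the 23478 gene rows of each deposited count table. Dnah3 and Dnah12 were listed without a row and are not described further. The list holds 8 regulators of multiciliation and 26 axoneme and ciliated cell genes, 24 of them with a row. Lung cells positive for CD31, CD271, CD90.2, Ter119, CD16/32 or CD45 were removed, EPCAM-positive cells were then selected, and their polyadenylated RNA was sequenced in 19 libraries. In the Yap active group (6 libraries) Stk3 and Stk4, the genes of the Hippo kinases that hold back Yap, were homozygous floxed and the SftpcCreert2 driver was present. The Yap active control group (4 libraries) carried the same floxed alleles without the driver. In the Yap deleted group (5 libraries) Yap was homozygous floxed with the same driver, against 4 Yap deleted control libraries with the floxed Yap alleles and no driver. Yap was activated or deleted at postnatal day 3, and the sort took place at postnatal day 14. The Sftpc promoter is active in AT2 cells, the surfactant-making cells of the alveolus, so the driver is not directed at ciliated cells. The labels call the cells AT2, name no separate animal for a library, and give all groups the same sort, so p-values measure the spread between these libraries.

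Ciliated cells line the airways and carry many motile cilia, whose beat moves mucus. Each cilium is built around an axoneme, a ring of microtubule doublets with dynein arms as motors, radial spokes and a central pair. A precursor cell leaves the cell cycle, multiplies its centrioles under Mcidas and Ccno, and then switches on axoneme genes through Foxj1 and the RFX factors. Because they carry EPCAM, ciliated cells can pass the sort together with alveolar cells. In bulk RNA, fewer cells of a type and less RNA per cell cannot be told apart, so the level of ciliated cell RNA is given here in place of a share of cells.

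Libraries held 34979553 to 43544559 counts in the Yap active table and 31947748 to 42924739 in the Yap deleted table. All 32 genes passed the filter on low counts in each fit. The RefSeq spans of 7 of them, Rsph1, Rsph9, Dnah11, Ccdc39, Ccdc40, Spag17 and Spata17, overlap another gene of the tables, and since it is not known whether counting used strand, their reads cannot be fully told apart from its reads. Stk3 counts were at 30.6 to 49.5 CPM in Yap active, against 34.02 to 54.6 CPM in its controls. Stk4 counts were at 78.5 to 125 CPM in Yap active, highest in Yap active 1, against 103 to 120 CPM in its controls. Yap1 counts were at 78.3 to 142 CPM in Yap deleted, against 119 to 215 CPM in its controls. The summed level of 12 AT2 markers ran from 34015 to 160450 CPM (a gene's count relative to the scaled library size) over the 19 libraries, and Foxj1, the defining ciliated cell factor, lay between 70.4 and 723 CPM, so both cell types were represented in every library. Esr1, which can pick up reads of the hormone receptor part of the Cre driver, ran against the label in 3 libraries. It was at 1.97 CPM in Yap active 1, 160.0 CPM in Yap active control 2 and 87.1 CPM in Yap deleted control 2, while the other control libraries held 0.952 to 3.91 CPM. The first principal component of genes outside the cilia lists set Yap active 1 and controls 1 to 3 apart from the other 6 libraries of the Yap active table, and Yap deleted controls 1 and 2 apart from the other 7 of the Yap deleted table. All libraries were kept under their labels. Results are also given without Yap deleted controls 1 and 2 and without Yap active 1 and Yap active control 2. For the Yap active line they are also given with the library set as covariate.

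The summed level of the 24 axoneme and ciliated cell genes did not separate the groups of either line. It was 1275, 928, 1068, 709, 1297 and 1187 CPM in Yap active libraries 1 to 6, against 1087, 1131, 1318 and 688 CPM in Yap active controls 1 to 4 (mean 1077 ± 227 against 1056 ± 265 CPM, SD, n = 6 and 4). The ranges of the Yap active and control libraries almost coincided, and control 4 was the lowest of the 10. In the other line the sum was 1460, 1232, 1511, 2502 and 1464 CPM in Yap deleted libraries 1 to 5, against 402, 283, 2006 and 1568 CPM in Yap deleted controls 1 to 4 (mean 1634 ± 497 against 1065 ± 854 CPM, SD, n = 5 and 4). Yap deleted controls 1 and 2 lay below every other library, whereas controls 3 and 4 each lay above 4 of the 5 Yap deleted libraries. Tppp3 takes much of this sum. Without Tppp3 and Mlf1 the mean was 663 ± 193 CPM in Yap active against 741 ± 287 CPM in its control (SD, n = 6 and 4). In the other line it was 1137 ± 425 CPM in Yap deleted against 702 ± 553 CPM in its control (SD, n = 5 and 4). The median level over the 24 genes, each relative to its mean in the table, put the same library lowest in each line. It was 0.467 in Yap active control 4 and 0.198 in Yap deleted control 2.

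**Figure D1:**
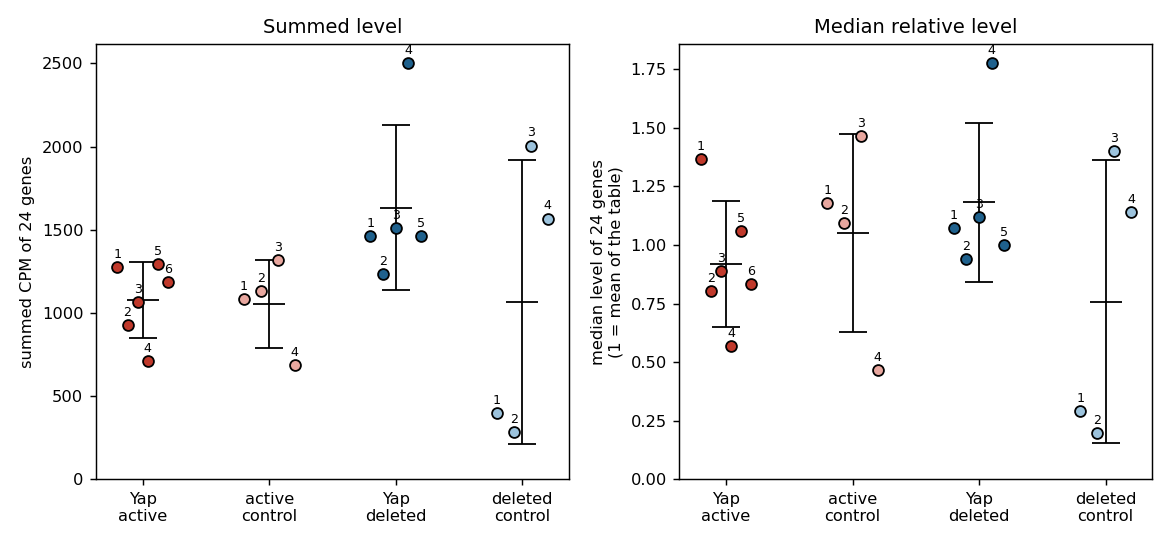
Summed CPM of the 24 axoneme and ciliated cell genes (left) and their median level relative to each gene's mean in its table (right), for every library (numbered points), with group mean and SD (bars). Yap active and control libraries overlap between 709 and 1297 CPM, and Yap deleted controls 1 and 2 stand at 402 and 283 CPM; the 2 tables were scaled separately.

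The spread between libraries of one table was wide for most genes. The highest library exceeded the lowest by 1.71-fold (Rfx2) to 5.21-fold (Foxn4) in the Yap active table and by 2.22-fold (Rfx3) to 33.6-fold (Spata18) in the Yap deleted table. Yap active control 4 was the lowest library for 22 of the 24 axoneme and ciliated cell genes. Yap deleted control 2 was lowest for 21 of them and control 1 for the remaining 3, while Yap deleted 4 was highest for 21. Most of the 24 genes thus shared their lowest libraries, which were controls in both tables. The highest library differed between genes in the Yap active table, where it was control 3 for 12 genes and Yap active 5 for 7.

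**Figure D2:**
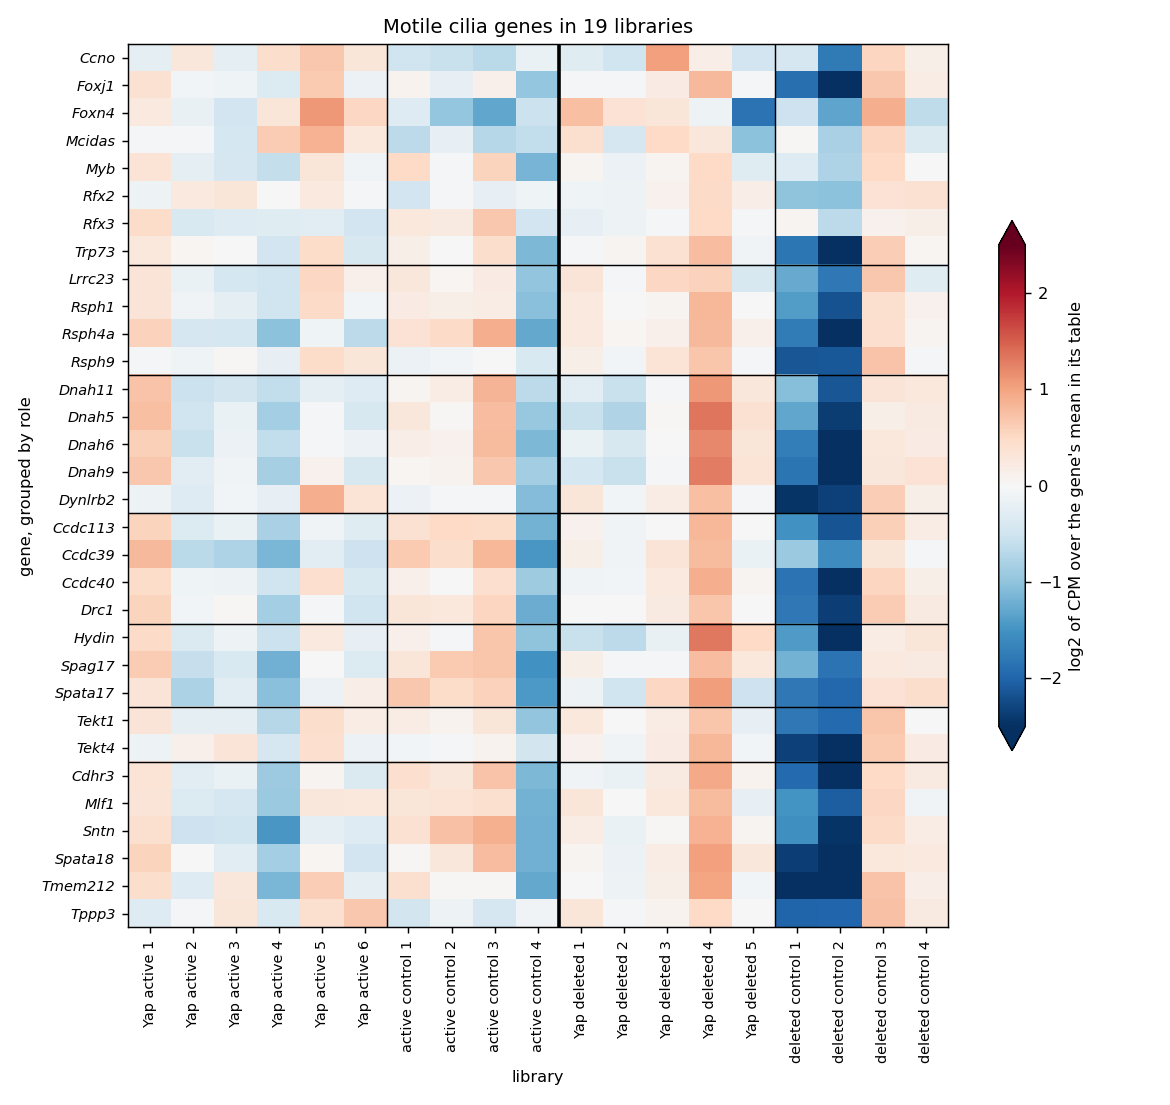
Level of the 32 measured genes (rows, grouped by role) in the 19 libraries (columns), as log2 of CPM over the gene's mean in its table; values beyond the colour bar take its end colour. Yap active control 4 and Yap deleted controls 1 and 2 are low across nearly all axoneme genes, and Yap deleted 4 is high.

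Markers of other cell types moved with these libraries. The summed level of 10 endothelial markers was 2130 and 1762 CPM in Yap deleted controls 1 and 2, against 52.9 to 138 CPM in the other 7 libraries of that table, and none of the 10 was at 0 in either control. Leukocyte markers (10 genes) stood at 216 and 1088 CPM in those controls, against 43.2 to 136 CPM in the other 7. AT2 markers (12 genes) summed to 37098 and 34015 CPM there, against 57268 to 112705 CPM in the other 7. Airway secretory markers (15 genes) summed to 22224.5 CPM in control 1, inside the 11529 to 44586 CPM of the other 7, and to 8838 CPM in control 2, below them. In the Yap active table the sum of 15 airway secretory markers was 12914 to 21001 CPM in Yap active 2 to 6 and 12635 CPM in control 4, against 7881 CPM in Yap active 1 and 4200 to 6259 CPM in controls 1 to 3. Other markers split the same libraries. The 12 AT2 markers summed to 101105 to 160450 CPM in Yap active 2 to 6 and control 4, against 50274 to 74962 CPM in Yap active 1 and controls 1 to 3. The 10 endothelial markers summed to 26.9 to 51.8 CPM in Yap active 2 to 6 and control 4, each with at most 1 marker at 0, against 80.3 to 314 CPM in Yap active 1 and controls 1 to 3. The median level of the 24 axoneme and ciliated cell genes was 1.09 to 1.47 in the 4 libraries with the lower secretory sums, against 0.467 to 1.06 in the other 6. The part of these other cells in the cilia levels was not tested.

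None of the 32 genes passed the test between Yap active and its control (edgeR's quasi-likelihood test, Benjamini-Hochberg adjusted p under 0.05), and neither did any other gene. Of all 15685 genes tested, 0% were called by edgeR and 0.115% by DESeq2, which called no cilia gene either. The 4 cilia genes with an unadjusted p under 0.05 were all regulators, and all were higher in Yap active (4 of 8 regulators and 0 of 24 axoneme and ciliated cell genes). They made up 12.5% of the 32 genes, where 12.6% of all genes had such a p, so the share over the whole list was at the background. No gene of the list had groups that did not overlap, which was seen upward in 0.465% and downward in 0.478% of all genes.

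Ccno, a cyclin-like protein needed for the multiplication of centrioles, lay at 22.6 to 42.7 CPM in Yap active (median 32.9), against 19.03, 18.2, 16.9 and 23.9 CPM in its controls 1 to 4. Only control 4 reached into the Yap active range. The log2 fold change was 0.70 ± 0.20 (SE; unadjusted p = 0.00509, adjusted p = 0.366, edgeR). Mcidas, the coactivator that starts multiciliation together with E2F factors, lay at 5.84 to 14.4 CPM in Yap active (median 8.59), against 5.06, 6.83, 4.81 and 5.18 CPM in its controls. Yap active 4 and 5 were the highest and Yap active 3 lay below control 2 (log2 fold change 0.80 ± 0.26 SE, unadjusted p = 0.0106, adjusted p = 0.366, edgeR).

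Foxn4, a forkhead factor of multiciliated cell differentiation known from Xenopus, lay at 3.02 to 8.99 CPM in Yap active (median 5.12), against 3.37, 2.17, 1.73 and 2.92 CPM in its controls. Control 1 alone lay inside the Yap active range (log2 fold change 1.07 ± 0.33 SE, unadjusted p = 0.00769, adjusted p = 0.366, edgeR). Rfx2, a factor that binds promoters of cilia genes, lay at 31.8 to 42.5 CPM in Yap active (median 37.7), against 24.9, 33.95, 30.1 and 32.3 CPM in its controls. Its fold change was the smallest of the 4 (log2 fold change 0.30 ± 0.13 SE, unadjusted p = 0.0384, adjusted p = 0.366, edgeR). Without Yap active 1 and Yap active control 2, whose Esr1 level ran against their labels, the log2 fold changes were 0.74 for Ccno, 0.98 for Mcidas, 1.01 for Foxn4 and 0.40 for Rfx2 (adjusted p 0.122 to 0.147, edgeR). The principal component puts Yap active 1 and 3 of the 4 controls in one set of libraries. Set and label therefore part only in Yap active 1 and control 4. Relative to the mean of the table, these 2 libraries stood at 0.845 and 0.892 for Ccno and at 0.920 and 0.934 for Rfx2. For Mcidas they stood at 0.964 and 0.654, both also below that mean. For Foxn4 they stood at 1.19 and 0.691, each on the side of its label. The mean over the 4 libraries of that set was 0.602-fold that of the other 6 for Ccno, 0.666-fold for Mcidas, 0.615-fold for Foxn4 and 0.805-fold for Rfx2. With the library set as covariate the log2 fold changes were 0.41 for Ccno, 0.71 for Mcidas, 0.96 for Foxn4 and 0.18 for Rfx2 (adjusted p 1.0 each, edgeR), so Yap activation and library set cannot be told apart here.

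The other 4 regulators had an unadjusted p above 0.05. Foxj1, which switches on motile cilia genes, lay at 231 to 457 CPM in Yap active (median 276), against 312, 253, 319 and 149.6 CPM in its controls. Its groups overlapped over most of their range, with a log2 fold change of 0.28 ± 0.25 (SE). Trp73, which encodes the p73 factor upstream of Foxj1, lay at 15.5 to 29.5 CPM in Yap active (median 22.1), against 23.8, 21.6, 29.4 and 9.94 CPM in its controls (log2 fold change 0.05 ± 0.28 SE). Myb, which acts early in multiciliated cells, lay at 16.4 to 31.2 CPM in Yap active (median 22.0), against 34.8, 24.1, 36.3 and 10.96 CPM in its controls (log2 fold change −0.18 ± 0.31 SE). In both genes control 4 was the lowest of the 10 libraries, as it was for Foxj1.

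Rfx3, the RFX factor also needed for cilia on other cells, lay at 19.3 to 36.8 CPM in Yap active (median 21.5), against 32.3, 31.4, 43.0 and 19.2 CPM in its controls. Yap active 1 alone stood near the controls, while control 4 stood with Yap active 2 to 6 (log2 fold change −0.41 ± 0.24 SE, adjusted p = 0.372, edgeR). Adjusted p of Foxj1, Trp73 and Myb ran from 0.508 to 0.925. Whether Ccno, Mcidas and Foxn4 differ from the axoneme genes in their change was not tested.

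**Figure D3:**
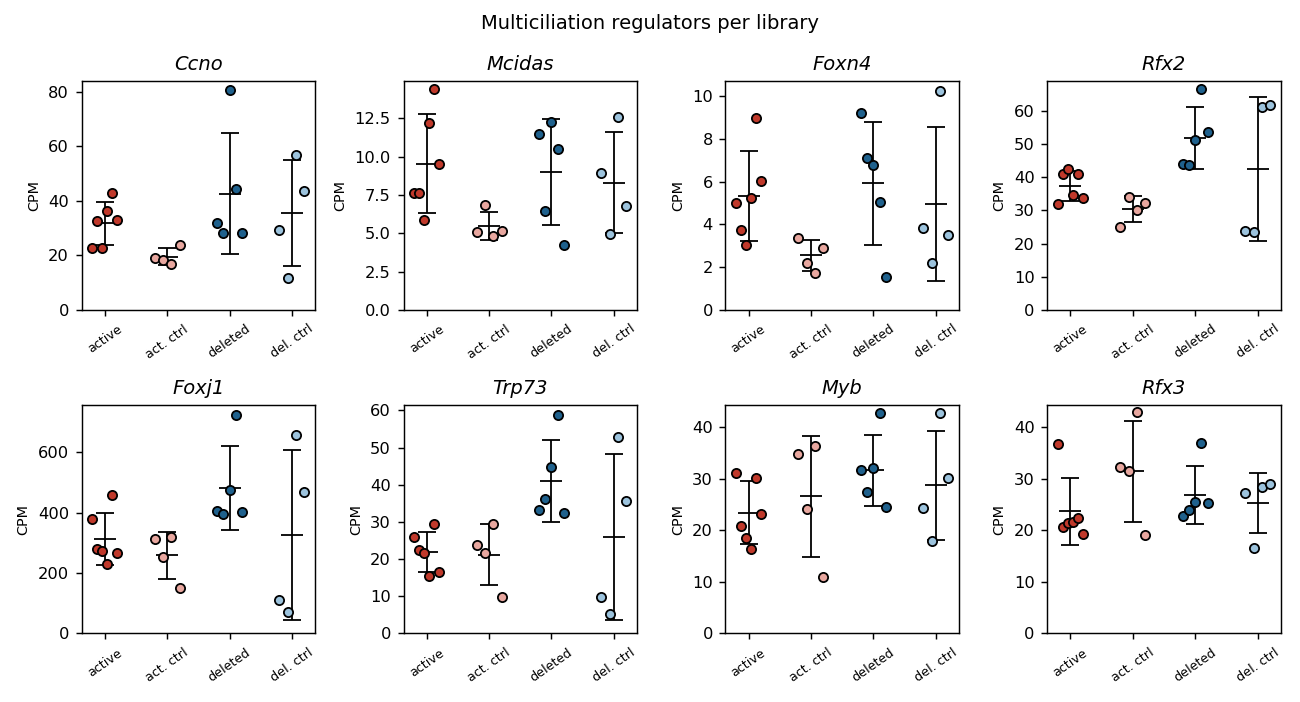
CPM of the 8 multiciliation regulators in every library (points), with group mean and SD (bars), for Yap active, its control, Yap deleted and its control. Ccno, Mcidas and Foxn4 are mostly higher in Yap active than in its control, while in Rfx3 Yap active 2 to 6 lie below controls 1 to 3 and in Foxj1, Trp73 and Myb control 4 is the lowest of its table; axes start at 0.

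Ccno and Mcidas are neighbours on mouse chromosome 13, followed by Cdc20b, another gene of multiciliated cell precursors, which was looked at after its values were seen. In RefSeq on GRCm38.p6 they span chr13:112987802-112990778, chr13:112993581-113000394 and chr13:113034975-113121019. Cdc20b lay at 4.03, 2.18, 1.496, 2.77, 4.46 and 3.71 CPM in Yap active, against 2.37, 1.20, 1.40 and 1.07 CPM in its controls. Control 1 lay above Yap active 2 and 3 (log2 fold change 1.03 ± 0.36 SE, unadjusted p = 0.0161, adjusted p = 0.366, edgeR). Dhx29, Gpx8 and Mtrex, which the tables list as Skiv2l2, were the other genes tested that reach within 100 kb of the start of Ccno. Their log2 fold changes were 0.11 ± 0.12, −0.22 ± 0.12 and −0.05 ± 0.12 (SE, adjusted p = 0.59, 0.366 and 0.799, edgeR). With Yap deleted, the log2 fold changes of Ccno, Mcidas and Cdc20b were 0.27 ± 0.47, 0.12 ± 0.37 and −0.07 ± 0.69 (SE).

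The start of Ccno also carried the highest-scoring region that the authors listed as opened in Yap active cells among regions named after cilia genes. It spans chr13:112986958-112988580 (mm10), is annotated as promoter, and had a score of 144, rank 539 of 6017 in that list. The scores are the authors' and their scale is not stated. The 250 bases before the RefSeq start lie inside this region (chr13:112987552-112987801, plus strand) and are shown with the RFX half-site GTTGCC, the core letters bound by RFX factors, in capitals.
Ccno: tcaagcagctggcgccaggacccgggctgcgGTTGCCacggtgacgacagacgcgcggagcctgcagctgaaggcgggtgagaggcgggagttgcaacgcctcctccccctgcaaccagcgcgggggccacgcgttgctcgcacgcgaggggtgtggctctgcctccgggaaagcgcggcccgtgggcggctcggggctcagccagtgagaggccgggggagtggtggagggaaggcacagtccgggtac

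The same half-site was searched on both strands (GGCAAC on the opposite one) in windows from 250 bases before to 50 after the RefSeq start, which 29 of the 34 genes had. It occurred in 15 of the 29 (51.7%), among them 5 of the 7 regulators with a window, against 14.1% of all 27025 windows. In 12 genes a match lay before the start site, and in Trp73, Rfx3 and Tekt4 the match lay after it. A longer X-box form, GTTNCC and GGNAAC with 0 to 3 letters between, was found in none of the 29 and in 0.936% of all windows. It overlaps the half-site where both occur. Other spellings of the X-box were not searched, so this count holds for that form alone. The forkhead motif TGTTTAC occurred in Myb, Sntn and Mlf1 (10.3%, against 4.05% of all), and TATAAA in 10.3%, against 15.7% of all. A match is a stretch of letters, not a measured site. Matches before the start site of the window are shown for 2 regulators and for genes of each kind of axoneme part, all 5′ to 3′ along the gene with the half-site in capitals. The start site of the Mcidas window lies inside the gene span given above, so its match lies within that span. The stretches come from chr13:112993661-112993690 (Mcidas), chr17:56831107-56831136 (Rfx2, minus strand), chr8:116504952-116504981 (Dynlrb2), chr5:30281370-30281392 (Drc1), chr8:110266952-110266976 (Hydin), chr11:72361883-72361909 (Tekt1, minus strand), chr6:124779749-124779778 (Lrrc23, minus strand), chr14:13670798-13670827 (Sntn) and chr3:67373980-67374009 (Mlf1), on the plus strand where none is named, in RefSeq on GRCm38.p6.
Mcidas: gggggaagccagGTTGCCaggttggttaac
Rfx2: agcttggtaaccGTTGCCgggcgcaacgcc
Dynlrb2: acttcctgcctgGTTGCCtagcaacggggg
Drc1: ctgctttcccttGGCAACggctt
Hydin: tgcggttgctgtGGCAACagatggt
Tekt1: tgcgtccgtccgGTTGCCatagagacc
Lrrc23: cgtcccgcccctGTTGCCataacaacaata
Sntn: tgtcattattcaGTTGCCatggaatgaatg
Mlf1: gtgtttacagagGTTGCCatagcagccgag

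Among the 24 axoneme and ciliated cell genes, 9 were higher and 15 lower in Yap active than in its control, with a median log2 fold change of −0.17, against −0.01 over all genes tested. The 8 regulators had 6 higher and 2 lower, with a median of 0.29. The range over the 24 ran from −0.74 (Sntn) to 0.42 (Dynlrb2), with adjusted p from 0.366 to 0.966 (edgeR). With the library set from the principal component as a covariate, the median of the 24 turned to 0.50 and all 32 genes had positive fold changes, none of them called. The direction of the axoneme genes therefore cannot be told apart from the library sets.

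Rsph1, of the radial spoke head, lay at 17.9 to 35.3 CPM in Yap active (median 23.9), against 29.0, 28.1, 28.7 and 12.2 CPM in its controls. Controls 1 to 3 were nearly equal and control 4 was below every other library (log2 fold change 0.07 ± 0.26 SE). The other radial spoke genes, Rsph4a, Rsph9 and Lrrc23, had log2 fold changes of −0.57, 0.22 and 0.06.

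Dnah5, a heavy chain of the outer dynein arm, lay at 33.7 to 102 CPM in Yap active (median 50.2), against 74.3, 62.3, 104 and 31.5 CPM in its controls (log2 fold change −0.27 ± 0.35 SE). Yap active 1 and control 3 held the most and control 4 the least. Dynlrb2, a dynein light chain of the roadblock family, lay at 21.8 to 50.5 CPM in Yap active (median 25.2), against 24.5, 26.6, 26 and 12.8 CPM in its controls. Yap active 5 and 6 stood above all controls and the other 4 Yap active libraries near controls 1 to 3, with a log2 fold change of 0.42 ± 0.28 (SE). Dnah6, Dnah9 and Dnah11, further dynein heavy chains, had log2 fold changes of −0.22, −0.15 and −0.37.

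Ccdc39, which with Ccdc40 forms the ruler that spaces dynein arms and spokes along the doublets, lay at 8.88 to 34.6 CPM in Yap active (median 13.0), against 30.7, 26.6, 34.7 and 7.16 CPM in its controls. Yap active 1 lay with controls 1 to 3, and control 4 lay below all Yap active libraries (log2 fold change −0.61 ± 0.45 SE). Ccdc40 (0.02), Drc1 of the nexin and dynein regulatory complex (−0.18) and Ccdc113, a coiled-coil protein of the axoneme (−0.32), were no nearer to a call. Hydin, of the central pair, lay at 24.1 to 49.1 CPM in Yap active (median 31.2), against 38.1, 34.01, 56.8 and 17.6 CPM in its controls (log2 fold change −0.10 ± 0.30 SE). Here too control 3 was highest and control 4 lowest. Spag17 and Spata17, also of the central pair, had log2 fold changes of −0.46 and −0.49.

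Tekt1, a tektin filament protein of the doublets, lay at 12.7 to 28.3 CPM in Yap active (median 20.7), against 23.7, 22.2, 25.7 and 10.5 CPM in its controls (log2 fold change 0.03 ± 0.28 SE). Tekt4 had a log2 fold change of 0.16. Tmem212, a ciliated cell marker, lay at 13.9 to 47.3 CPM in Yap active (median 31.7), against 40.6, 31.4, 31.1 and 12.6 CPM in its controls (log2 fold change 0.14 ± 0.37 SE). In both genes Yap active 5 was highest and control 4 lowest.

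Tppp3, a tubulin-binding protein abundant in ciliated cells, departed from this pattern. It lay at 276 to 573 CPM in Yap active (median 394), against 260.2, 329.5, 271 and 339 CPM in its controls, so that control 4 was here the highest control and Yap active 6 the highest library (log2 fold change 0.42 ± 0.22 SE, adjusted p = 0.366, edgeR). Sntn, sentan of the ciliary tip, lay at 5.97 to 21.4 CPM in Yap active (median 12.3), against 21.1, 27.2, 30.3 and 7.08 CPM in its controls. It had the most negative fold change of the list, −0.74 ± 0.39 (SE, adjusted p = 0.366, edgeR), yet control 4 lay between the lowest and the next Yap active library. Cdhr3, a cadherin of ciliated cells, Mlf1 and Spata18 had log2 fold changes of −0.38, −0.16 and −0.22.

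**Figure D4:**
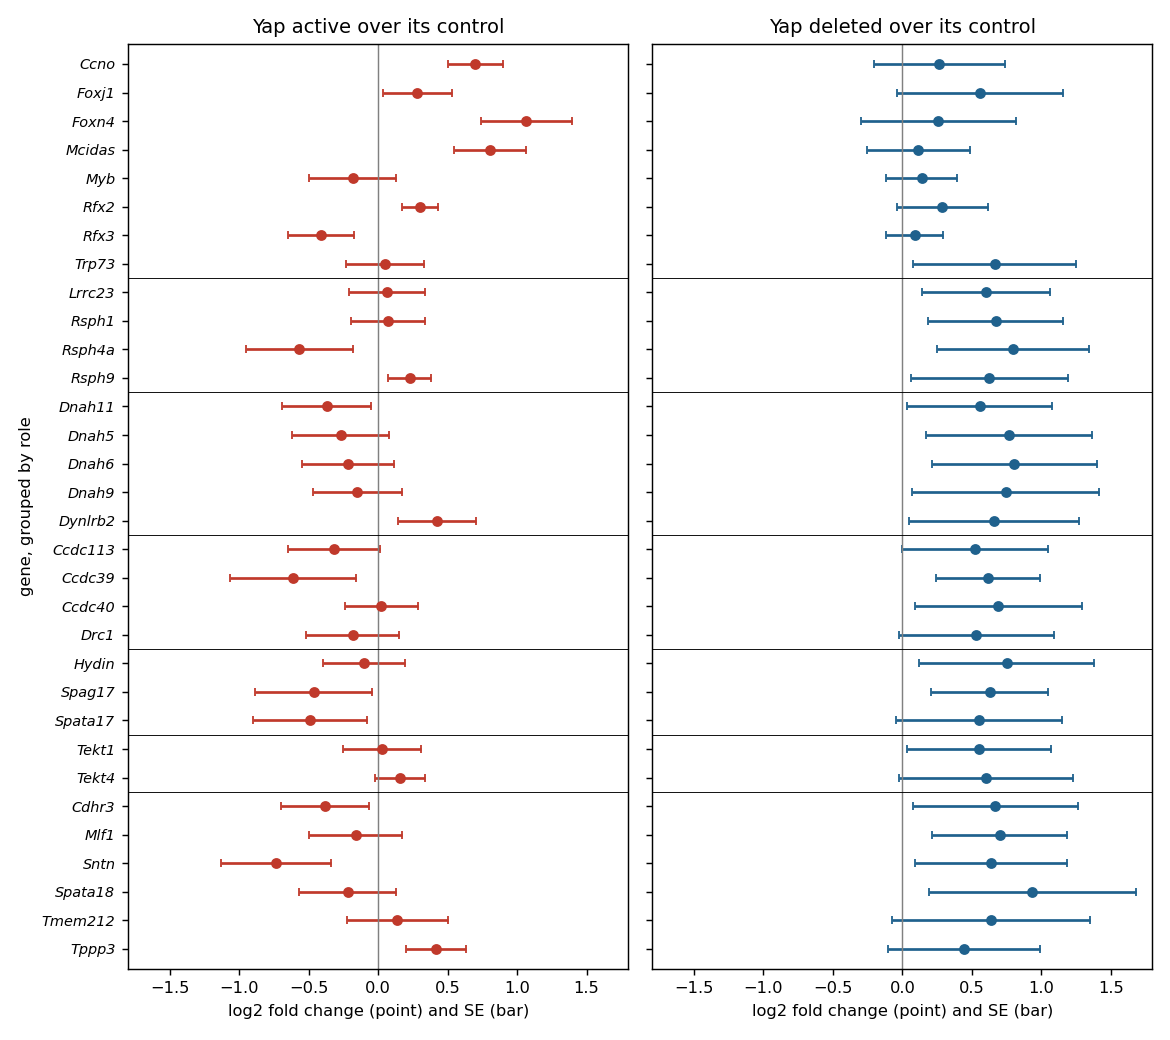
Log2 fold change (points) with SE (bars) of the 32 genes, grouped by role, for Yap active over its control (left) and Yap deleted over its control (right). On the left the regulators Ccno, Mcidas and Foxn4 stand at 0.70, 0.80 and 1.07 and axoneme genes on both sides of 0; on the right all 32 are positive with wide errors.

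All 32 genes were higher in Yap deleted than in its control, with a median log2 fold change of 0.62, against 0.01 over all genes tested, but none was called. Adjusted p ran from 0.44 to 0.885 (edgeR), and no gene of the list had an unadjusted p under 0.05, which 15.3% of all 15818 genes had. edgeR called 1 gene in all (0.00632%), while DESeq2 called 5.01% of genes, none of them on the list. No cilia gene had groups that did not overlap, against 2.64% of all genes upward and 1.25% downward. The median was 0.64 over the 24 axoneme and ciliated cell genes and 0.26 over the 8 regulators.

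These positive values rested on Yap deleted controls 1 and 2. Without them, the median of the 24 genes turned to −0.11, and of the 17 genes given by library 14 had negative and 3 positive fold changes, with Foxj1 at −0.26 and Tppp3 at −0.35 (adjusted p = 0.909 and 0.89, edgeR). Set against the mean of the other 7 libraries of the table, the mean of these 2 controls was 0.103-fold (Spata18) to 0.371-fold (Ccdc39) for the 24 genes, and each of the 24 lay below all 7. For the regulators the same ratio ran from 0.181 (Trp73) to 0.801 (Rfx3), and 4 of 8 lay below all 7.

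Among the regulators, Foxj1 lay at 405, 397, 477, 723 and 401 CPM in Yap deleted, against 112, 70.4, 656 and 467 CPM in its controls (log2 fold change 0.56 ± 0.60 SE). Trp73 lay at 33.3, 36.2, 44.8, 58.8 and 32.5 CPM in Yap deleted, against 9.81, 5.36, 52.8 and 35.7 CPM in its controls (log2 fold change 0.67 ± 0.59 SE). Rfx2 lay at 44.1, 43.9, 51.4, 66.8 and 53.7 CPM in Yap deleted, against 23.7, 23.6, 61.1 and 61.8 CPM in its controls (log2 fold change 0.29 ± 0.33 SE). In all 3 genes controls 1 and 2 were the lowest libraries and Yap deleted 4 the highest.

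Ccno, Mcidas, Foxn4, Myb and Rfx3 did not follow the axoneme genes as closely in these libraries. Ccno lay at 31.8, 28.0, 80.4, 44.4 and 28.1 CPM in Yap deleted, against 29.4, 11.5, 56.8 and 43.7 CPM in its controls, so that control 1 lay above Yap deleted 2 and 5. Mcidas lay at 11.5, 6.48, 12.3, 10.5 and 4.25 CPM in Yap deleted, against 8.91, 4.93, 12.6 and 6.76 CPM in its controls. Its lowest library was Yap deleted 5, and the 2 groups covered the same range.

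Foxn4 lay at 9.21, 7.11, 6.77, 5.04 and 1.52 CPM in Yap deleted, against 3.82, 2.21, 10.3 and 3.52 CPM in its controls (log2 fold change 0.26 ± 0.56 SE). It was lowest in Yap deleted 5, where the median of the 24 axoneme and ciliated cell genes stood at 1.001 relative to the mean of the table. Myb lay at 31.7, 27.4, 32.0, 42.6 and 24.6 CPM in Yap deleted, against 24.2, 17.9, 42.7 and 30.1 CPM in its controls (log2 fold change 0.14 ± 0.26 SE). Rfx3 lay at 22.7, 24, 25.5, 36.9 and 25.3 CPM in Yap deleted, against 27.3, 16.6, 28.3 and 28.9 CPM in its controls, with control 1 above 4 of the 5 Yap deleted libraries (log2 fold change 0.09 ± 0.20 SE).

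**Figure D5:**
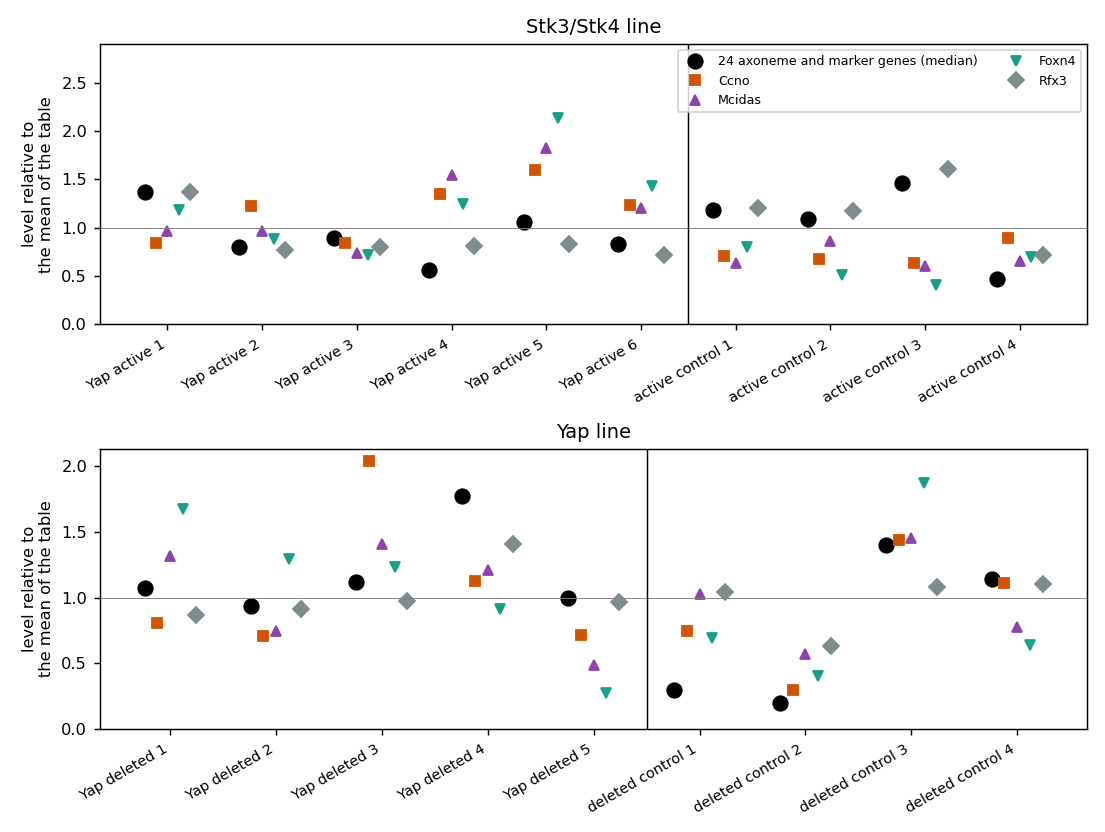
Level in each library relative to the mean of its table, for the median of the 24 axoneme and ciliated cell genes and for Ccno, Mcidas, Foxn4 and Rfx3. In Yap deleted controls 1 and 2 the 24 genes stand at 0.294 and 0.198 while Rfx3 stands at 1.04 and 0.634; in Yap active 4 the 24 genes stand at 0.567 and Mcidas at 1.54.

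Rsph1 lay at 35.9, 29.8, 31.9, 53.5 and 30.0 CPM in Yap deleted, against 11.6, 6.65, 39.9 and 32.8 CPM in its controls (log2 fold change 0.67 ± 0.48 SE). Dnah5 lay at 53.1, 46.8, 79.7, 199 and 102 CPM in Yap deleted, against 31.7, 15.1, 87.4 and 91.6 CPM in its controls (log2 fold change 0.77 ± 0.60 SE). Dynlrb2 lay at 51.2, 39.4, 47.4, 69.8 and 40.1 CPM in Yap deleted, against 7.58, 8.28, 63.8 and 45.8 CPM in its controls (log2 fold change 0.66 ± 0.61 SE). Controls 3 and 4 lay inside the Yap deleted range for these spoke and dynein genes, and Yap deleted 4 was the highest library for each.

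Ccdc39 lay at 22.9, 19.5, 26.04, 35.7 and 18.5 CPM in Yap deleted, against 10.8, 7.02, 25.7 and 20.4 CPM in its controls (log2 fold change 0.62 ± 0.37 SE). Its adjusted p of 0.44 was the lowest of the 32 (edgeR). Hydin lay at 36.7, 34.1, 47.1, 134 and 75.7 CPM in Yap deleted, against 20.1, 8.82, 61.1 and 65.9 CPM in its controls (log2 fold change 0.75 ± 0.63 SE). Tekt1 lay at 31.4, 26.1, 29.7, 42.3 and 22.5 CPM in Yap deleted, against 7.58, 6.76, 42.2 and 26.4 CPM in its controls (log2 fold change 0.55 ± 0.52 SE). For Tekt1, control 3 and Yap deleted 4 were level at the top of the table.

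Tmem212 lay at 56.1, 51.7, 62.7, 112 and 54.3 CPM in Yap deleted, against 9.76, 6.65, 93.0 and 63.5 CPM in its controls (log2 fold change 0.64 ± 0.71 SE). Tppp3 lay at 518, 409, 452, 598 and 419 CPM in Yap deleted, against 106.1, 106.6, 699 and 497 CPM in its controls (log2 fold change 0.44 ± 0.55 SE). Sntn lay at 15.8, 12.4, 14.2, 25.4 and 14.4 CPM in Yap deleted, against 4.77, 2.52, 19.3 and 15.7 CPM in its controls (log2 fold change 0.64 ± 0.54 SE). In these 3 ciliated cell markers controls 3 and 4 lay above most Yap deleted libraries. The remaining 15 genes of the list had log2 fold changes between 0.52 (Ccdc113) and 0.94 (Spata18).

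The change in the Yap active line was set against that in the Yap deleted line by the difference of their log2 fold changes in one model. It was negative for all 24 axoneme and ciliated cell genes (median −0.86, against 0.02 over all genes tested) and positive for 4 of the 8 regulators. None of the 32 was called, nor was any other of 16308 genes by edgeR (0%), and DESeq2 called 0.104% of genes and no cilia gene. None of the 32 had an unadjusted p under 0.05, against 6.47% of all genes. The 2 lowest values were −1.37 ± 0.71 for Sntn and −1.36 ± 0.70 for Rsph4a, and the highest was 0.81 ± 0.66 for Foxn4 (SE, adjusted p 0.764 to 0.827, edgeR). Without Yap active 1, Yap active control 2 and Yap deleted controls 1 and 2, the median of the 24 was −0.25, with 9 positive and 15 negative. Of the 8 regulators 6 were then positive and 2 negative (median 0.54), with Foxj1 at 0.43 and Mcidas at 1.10, and none was called.

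A wider list of 92 other motile cilia genes, 89 with a row and 86 tested, was read in the same way. In the Yap active line 27 were higher and 59 lower (median −0.09) and none was called. An unadjusted p under 0.05 was found for 5 of them, all higher, which is 5.81% of the list and below the 12.6% of all genes. Besides Cdc20b these were E2f4 (0.45 ± 0.17 SE), the partner of Mcidas, Morn5 (0.90 ± 0.36), Heatr2 (0.24 ± 0.10), a dynein assembly factor, and Rfx1 (0.30 ± 0.13), each with an adjusted p of 0.366 (edgeR). With the library set as covariate, 83 were higher and 3 lower (median 0.42). With Yap deleted, 81 were higher and 5 lower (median 0.53), none was called, and the lowest p belonged to Wdr78 (0.64 ± 0.32 SE, adjusted p = 0.369, edgeR). This direction too rested on Yap deleted controls 1 and 2, where the list summed to 877 and 723 CPM, against 2129 to 2690 CPM in controls 3 and 4. Without those 2 controls, 13 were higher and 73 lower (median −0.15). For the difference, 11 were positive and 75 negative (median −0.61), and Wdr78 and Lrriq1 had an unadjusted p under 0.05 (2.33% of the list), with Wdr78 at −1.09 ± 0.50, Lrriq1 at −1.37 ± 0.64 and Gmnc, a relative of Mcidas that acts before it, at 1.01 ± 0.55 (SE, adjusted p 0.763 to 0.776, edgeR).

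Intraflagellar transport genes, which both motile and primary cilia use, had 9 of 26 higher and 17 lower in Yap active (median −0.11) and 22 higher and 4 lower in Yap deleted (median 0.29), the second turning to 6 higher and 20 lower without Yap deleted controls 1 and 2. Genes of centriole amplification, many of which dividing cells also use, had 6 of 14 higher and 8 lower in Yap active (median −0.08) and 5 higher and 9 lower in Yap deleted (median −0.12). With the library set as covariate, 22 intraflagellar transport genes were higher and 4 lower in Yap active, and 13 centriole genes higher and 1 lower. No gene of these lists was called in either line. The summed level of 10 dividing-cell markers ran from 253 to 651 CPM in Yap active, against 33.2 to 541 CPM in its controls, and its part in the centriole genes was not tested.

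In the authors' lists of ATAC-seq regions, those opened in Yap active cells were named after 12 of the 34 cilia genes (35.3%), against 19.3% of the genes of the count table. Regions at a start site or at most 0.441 kb from it belonged to Ccno, Rsph1, Rsph4a, Dnah9 and Spata18. That of Rsph1 was annotated as promoter with a score of 64.5, and that of Rsph4a as promoter with a score of 21.4. Regions closed in Yap active cells were named after Tppp3, Foxn4, Cdhr3 and Rfx3 (11.8%, against 4.98% of genes), none at a promoter. In the Yap deleted line 1 opened region was named after Dnah5 and 2 closed ones after Rfx3 (2.94% of the 34 genes in each direction), near the 2.04% of genes for opened and 2.41% for closed regions. These lists carry no replicate values, so these shares have no test. The genes of the count table include those below the filter on low counts, with 15685 tested in the Yap active line. All 32 cilia genes with a row passed that filter. The sets were not matched for expression or gene length.

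In the authors' peak lists, a peak touched the promoter window of 10 and 6 of 29 cilia genes in the 2 Yap active lists (34.5% and 20.7%), against 0 and 4 in the 2 control lists (0% and 13.8%). The corresponding shares of all windows were 32.8% and 16.8% in Yap active and 6.35% and 4.23% in control. The shares thus lay near the background in both Yap active lists, and the lists differed in length from 28418 to 345109 peaks. Ccno had a peak in both Yap active lists and Mcidas in control list 2, with fold enrichments of 1.83, 1.57 and 2.10 over background as the authors give them. None of these peaks had a q under 0.05 (−log10 q at most 0.0105), so they do not show an open promoter by themselves.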

How the data were processed

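The authors deposited 2 tables of read counts per gene, 1 for each line, with 10 and 9 libraries and 23478 gene rows each, 27 of them under names turned into dates. Per the submitters' processing notes the tools were Trim Galore, Bowtie2, Cufflinks, DESeq and HOMER on build mm10, with no versions. The counting program and annotation are not given in the sources used here, nor whether counting used strand. No column of sample values was left out (0 columns).

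TMM scaling and the filterByExpr filter of edgeR 4.0.16 (R 4.3.3) preceded its robust quasi-likelihood test, two-sided, over all genes of a fit, with Benjamini-Hochberg adjustment. Genes with an adjusted p under 0.05 were called. CPM uses the TMM-scaled library size. DESeq2 1.42.0, RLE scaling, no count filter, leaving out each library and a replicate block were alternatives. Some further fits were chosen after the data were seen. They left out Yap active 1 and Yap active control 2, Yap deleted controls 1 and 2, or all of these. Another such fit took the library set as covariate. The fits and the motif search were tested on simulated data. All pairs of libraries within a group differed by more than counting noise (chi-square of 53.1 per gene or more). Per the labels' replicate numbers a block could be fitted, but the deviations of same-numbered libraries did not all correlate, so it is given only with the alternatives. PCR reads without molecular identifiers are not independent molecules.

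The authors' region lists give a score of unstated scale and an annotation by HOMER, per the file headers. The authors' peak lists give a fold enrichment and −log10 q in the columns of a broad-peak file, with cutoff and pooling not given in the sources used here. A peak was tied to a promoter window of 300 bases at an overlap of at least 1 bp.

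The genes and lists were chosen with earlier results of these data known. Rows were found by symbol or, failing that, by a synonym in RefSeq. The 8 regulators and 9 other genes (Rsph1, Dnah5, Dynlrb2, Ccdc39, Hydin, Tekt1, Tmem212, Tppp3 and Sntn) are given by library by rule, as would be any further gene of the list with an unadjusted p under 0.05. Of the wider list up to 5 genes with the smallest p per comparison could be named.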

Additional observations from a re-analysis of the deposited data

Results flagged for a closer look

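In groups of 4 to 6 libraries, the gap of the highest or lowest library to its nearest neighbour was set against the group's range with Dixon's critical values. Of 132 such tests over the 32 genes and the summed level, 16 passed, where chance passes about 1 in 20, and genes that move together are not independent tests.

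Yap active control 4 was the low library for 8 of the 16. There Ccdc113 stood at 7.77 CPM, Ccdc39 at 7.16, Drc1 at 8.51, Dynlrb2 at 12.8, Mlf1 at 6.36, Rsph1 at 12.2, Spata17 at 0.716 and Tekt1 at 10.5 CPM. In Yap active 1, Dnah11 (31.3 CPM) and Rfx3 (36.8 CPM) stood above the other 5 libraries of the group. In Yap deleted 4, Ccdc113 (35.9 CPM), Rfx3 (36.9 CPM), Rsph4a (85.8 CPM), Tmem212 (112 CPM) and the summed level of the 24 axoneme and ciliated cell genes (2502 CPM) stood above the other 4. Rfx3 stood at 16.6 CPM in Yap deleted control 2, below the other 3 controls.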

How the results depend on the processing

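No cilia gene was called under any alternative in any of the 3 comparisons (lowest adjusted p 0.0543). Over the 17 genes given by library, 905 of 918 fold changes under the alternatives moved by less than the SD between libraries and 13 by more. That SD is wide. For the mean log2 level of the 24 axoneme and ciliated cell genes it was 0.55 in the Yap active line and 1.02 in the Yap deleted line. A change of sign can lie within it, as for their median of 0.64 in the Yap deleted line, which was −0.11 without controls 1 and 2. The number of genes called over all genes moved with DESeq2 to 18 in the Yap active line, 792 in the Yap deleted line and 17 for the difference. Leaving out each library gave 0 to 2 called genes in the Yap active line (2 without Yap active 1 or its control 4), 0 to 4 in the Yap deleted line (4 without its control 4, and 0 without any 1 of Yap deleted 1 to 5 or control 3) and 0 to 3 for the difference (3 without Yap deleted control 4). Without Yap active 1 and control 2, 13 genes were called. With the library set as covariate the median of the axoneme and ciliated cell genes in the Yap active line was 0.50, in place of −0.17. The cause of these shifts was not tested.

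With the replicate number as a replicate block, 0 genes were called in the Yap deleted line, in place of 1, and the block changed no other call. The correlation of deviations of same-numbered libraries was 0.523, 0.009, 0.051 and 0.494 in the Yap active line and −0.255, 0.445, 0.259 and 0.29 in the Yap deleted line, so the numbers are not taken to pair the libraries.

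With peaks limited to a q under 0.05, 0 cilia promoters had a peak in each of the 4 lists. That limit left 372 and 35 peaks in the Yap active lists and 0 and 7 in the control lists. Of all 27025 windows, 0.233% had such a peak in Yap active list 1 and 0% in the other lists, so the count says nothing particular to cilia genes. The ratio of summed levels was 1.02 for Yap active over its control (0.914 to 1.11 on leaving out each library) and 1.53 for Yap deleted over its control (1.23 to 2.18), the second turning to 0.914 without Yap deleted controls 1 and 2. With Tppp3 and Mlf1 left out of the sum, the ratio was 0.896 in the Yap active line and 1.62 in the Yap deleted line.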
